A study of Rattus norvegicus with 21 samples.

Results

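The transcripts described here are those abundant in microglia of sham-operated rats and at most 1/3 of that level in microglia sorted after experimental stroke, in both sets of libraries of the series. Each library's expected counts were scaled by the library's total to CPM, the usual unit for counts corrected for depth, averaged over the libraries of a group, and 1 was added. The members were chosen by these levels in sham and stroke microglia: a transcript was kept when the value was at least 20 in sham microglia of both sets and when stroke microglia of each set were at or below 1/3 of the sham value. Of 30404 transcripts in the files, 6608 reached the sham level, 81 of these also fulfilled the 24h condition, 123 the 7D condition, and 57 both. The 57 members have 55 distinct rows, because members 3 and 4, and members 54 and 55, hold identical values in every library. Members are numbered from 1, the highest mean CPM over both sham groups, to 57, the lowest.

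The animals were adult rats, with the strain spelled Winstar in the labels. In the stroke groups the right middle cerebral artery was closed with a filament for 90 min and then reperfused (MCAO). Sham animals had the right carotid artery exposed and its external branch tied, and their treatment field names a PBS injection. Cells of the operated side of the brain were sorted by flow cytometry as microglia, CD11b+CD45low, or as blood-derived macrophages, CD11b+CD45high. The 21 libraries form 6 groups by title: sham microglia, MCAO microglia and MCAO macrophages, with 3 libraries each in the set here called 24h and 4 each in the set whose titles carry the prefix 7D. No sham macrophages were among the samples, so each comparison of macrophages with sham crosses cell gates. Total expected counts ranged from 6923630 to 9668961 in the 24h libraries and from 11115359 to 15401910 in the 7D libraries.

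Several label fields conflict, and the results below rest on the titles. The cell fraction fields of 24h microglia library 3 and 24h macrophage library 3 are the reverse of their titles. Microglia is what both the source name and the cell fraction entry give for the 4 libraries titled as 7D macrophages, and the treatment entry of every 7D library reads 24 h. The labels thus do not settle when the 7D cells were taken or through which gate the 7D macrophages were sorted. Set and titled time coincide and cannot be told apart. The mean fragment length implied by the effective lengths also differed between sets, at 157 to 171 nt in the 24h libraries and 178 to 193 nt in the 7D libraries.

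Microglia are the resident macrophages of the brain. In the undisturbed brain they keep a surveying state with its own expression programme, maintained by local signals, and after ischaemia many genes of that programme are lowered while inflammatory and phagocytic genes are raised. Monocytes from the blood enter the injured side and become macrophages there, carrying the same surface marker CD11b with more CD45. The files give Ensembl transcript identifiers without gene names, and a RefSeq table of 47357 rat genes held 0 of the 30404. The members are therefore described by number, level and length, their gene functions are not stated, and the labelled cell types were not checked against marker genes.

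In sham microglia the 57 members together made up 18682 ± 1118 CPM (SD, n = 3) in the 24h set and 14663 ± 2605 CPM (SD, n = 4) in the 7D set. MCAO microglia had 3444 ± 610 CPM (n = 3) and 2627 ± 700 CPM (n = 4), and MCAO macrophages 8934 ± 861 CPM (n = 3) and 5626 ± 1316 CPM (n = 4). The range in sham was 17815 to 19943 CPM at 24h and 11441 to 17041 CPM at 7D, and the ranges in MCAO microglia were 2867 to 4082 CPM and 2072 to 3644 CPM. The gap between sham and MCAO microglia is what the rule selected and is given as a description. In bulk libraries of sorted cells, fewer cells of a kind and less RNA per cell cannot be told apart.

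**Figure D1:**
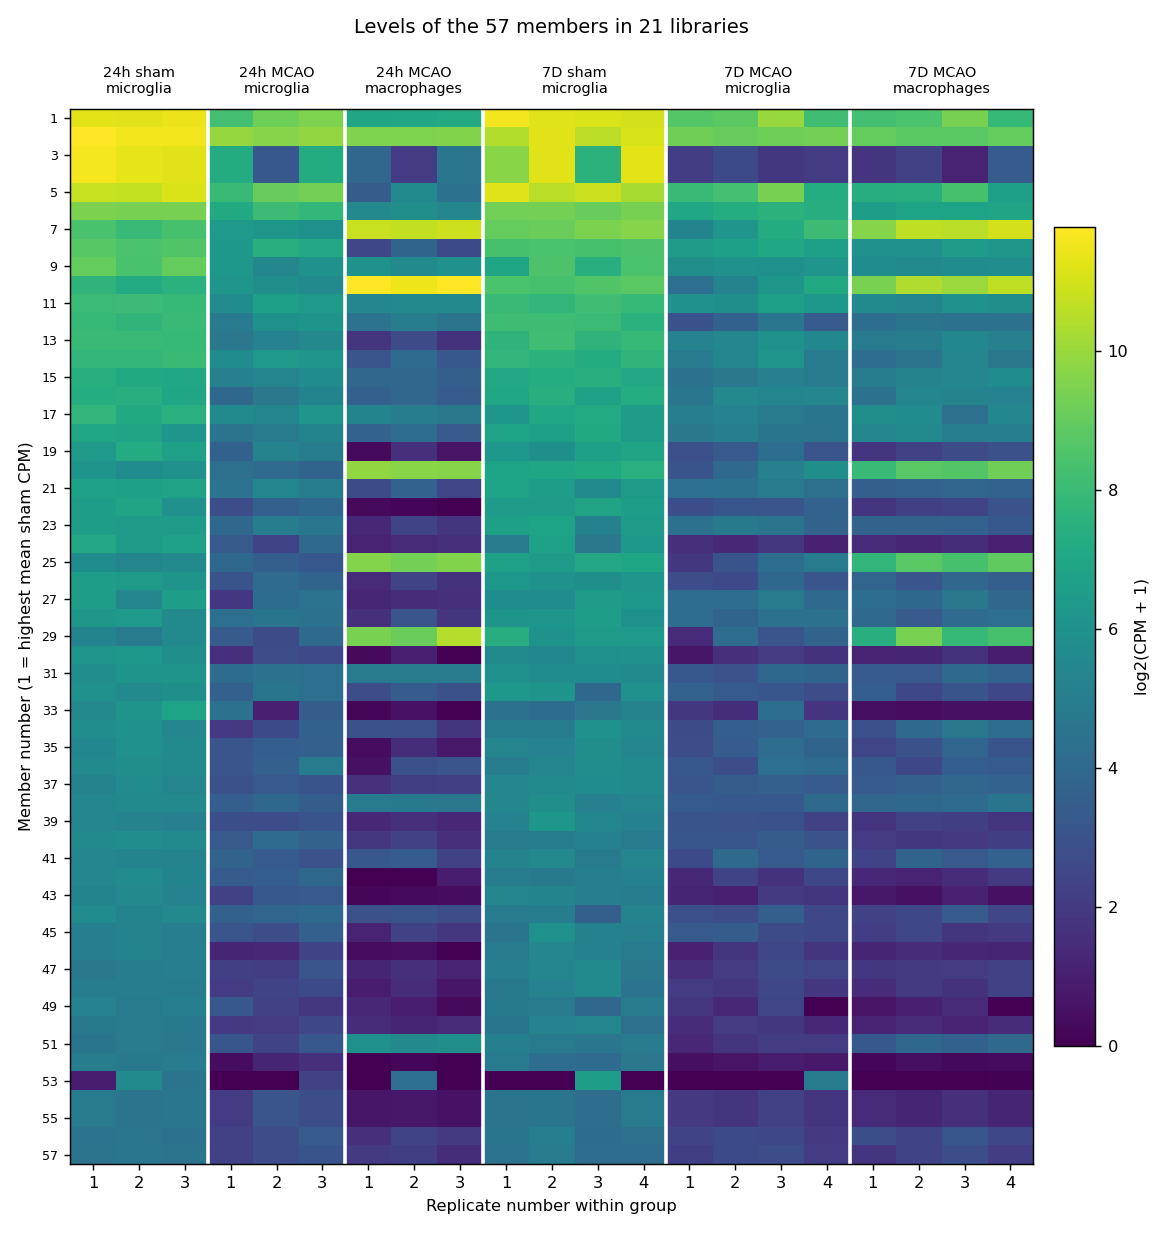
Level of each of the 57 members (rows, in order of mean sham CPM) in each of the 21 libraries (columns, by group and replicate number), as log2(CPM + 1). Most rows are bright in both sham groups and dark in the other 4. Rows 10, 20, 25, 29 and 51 have their brightest cell in the 24h macrophages. Row 7 is bright in both macrophage groups, with its brightest cell in 7D macrophage library 4.

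A few members carried most of the sham total. Member 1 (ENSRNOT00000000888) had the highest mean CPM over both sham groups, with 2565, 2465 and 2777 CPM in 24h sham and 3019, 2371, 2195 and 2088 CPM in 7D sham. Its MCAO microglia had 302, 587 and 728 CPM at 24h and 404, 444, 994 and 289 CPM at 7D. All 7 MCAO microglia libraries lay below all 7 sham libraries, with group means of 2602 ± 159 against 539 ± 217 CPM and 2418 ± 417 against 533 ± 314 CPM. Its MCAO macrophages had 126, 134 and 145 CPM at 24h and 303, 347, 669 and 235 CPM at 7D, without overlap between the sets.

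Member 2 (ENSRNOT00000009556) had 3456, 2952 and 2925 CPM in 24h sham and 1389, 2474, 1538 and 2181 CPM in 7D sham. It was the only member called different between the sham groups, at -0.66 ± 0.14 on the log2 scale for 7D over 24h (± SE, adjusted p = 0.0195), where 1.04% of all 14252 transcripts were called lower. MCAO microglia held 961, 796 and 950 CPM of it at 24h and 609, 522, 575 and 647 CPM at 7D. The macrophage values were close to each other within a set, at 727, 732 and 751 CPM and at 508, 435, 439 and 516 CPM.

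Members 3 and 4, which share one set of values, had the largest drop below sham. Sham libraries held 3167, 2654 and 2446 CPM at 24h and 839, 2472, 191 and 2537 CPM at 7D, so that 7D sham spread over more than an order of magnitude. MCAO microglia held 153, 8.53 and 152 CPM at 24h and 3.41, 5.36, 2.78 and 3.10 CPM at 7D. On the scale of the rule these means were 3.82% of sham at 24h and 0.309% at 7D. Macrophages were also low, at 14.1, 3.14 and 23.6 CPM and at 2.50, 3.83, 1.18 and 9.90 CPM.

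Levels of different transcripts can be ordered only per length, for which the deposited TPM, which corrects for both length and depth, was used. Taken row by row, member 1 led in 24h sham with 3733 ± 205 TPM (SD, n = 3). Members 3 and 4 followed with 2471 ± 353 TPM each, member 2 with 1877 ± 195 TPM and member 5 with 1499 ± 188 TPM. Members 3 and 4 have the same length of 1926 nt and identical counts, not whole in 20 libraries. If they divide one pool of reads, their joint level would exceed that of member 1 in 24h sham. Ordered by the mean over both sham groups, the lowest member was 40, at 7.28 TPM. Members were 806 to 8817 nt long with a median of 2156 nt, against a median of 2483 nt for the 6608 transcripts at the same sham level. Expected counts that were not whole in at least 1 library, the mark of reads that RSEM divides among transcripts, occurred in 21 of 57 members (36.8%) and in 1607 of the 6608 (24.3%). For those members a level also depends on how shared reads were divided.

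Across the 57 members, MCAO microglia of the 24h set stood at 3.82% to 33.0% of sham with a median of 25.4%, and those of the 7D set at 0.309% to 31.8% with a median of 21.4%. The medians over all 6608 transcripts were 92.3% and 94.7%. The level in the 7D set was the lower of the 2 percentages for 43 of 57 members. The matching share of the 6608 transcripts was not counted, so the 43 cannot be read as a trait of the members. By edgeR 3 members (5.26%) were called lower relative to sham at 7D than at 24h, where 1.71% of all 14252 transcripts were. Few members approached absence: 7 were at or below 10% of sham at 24h, 8 at 7D, and 5 in both sets, namely members 3, 4, 24, 30 and 52. MCAO microglia still averaged above 10 CPM for 36 members at 24h and 29 at 7D, so "lost" describes lowered levels for most members.

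All MCAO microglia libraries lay below all sham libraries for 56 of 57 members at 24h and for 55 of 57 at 7D, and 42.3% and 24.2% of the 6608 transcripts had such a gap. The exceptions were member 53 in both sets and member 33 at 7D. By edgeR's quasi-likelihood test, 55 of 57 members were called lower at 24h, where 20.7% of all transcripts tested were, and 56 of 56 at 7D, where 23.2% were. None was called higher in either set, also at an unadjusted p under 0.05 and with DESeq2, where 24.8% and 22.9% of transcripts were by edgeR. These counts come from the contrast that chose the members and support nothing. Member 53 did not pass the filter on low counts in the 7D set. It was at 0.952, 47.5 and 22.2 CPM in 24h sham and at 0, 0, 96.1 and 0 CPM in 7D sham, with 1 library deciding its 7D level.

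The members nearest the limits were close to transcripts left outside. The 2 members nearest to the 1/3 limit stood at 32.6% and 22.2%, and at 33.0% and 31.3%, of sham at 24h and 7D. The 2 nearest outside stood at 33.4% and 19.0%, and at 31.2% and 33.7%. At the sham limit, the scaled values just inside were 28.8 and 22.6, and 23.9 and 22.1, for the 24h and 7D sets. Just outside they were 21.0 and 19.7, and 29.99 and 18.8. Of the 57 members, 39 stayed in every set chosen after leaving out one library that the rule uses.

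**Figure D2:**
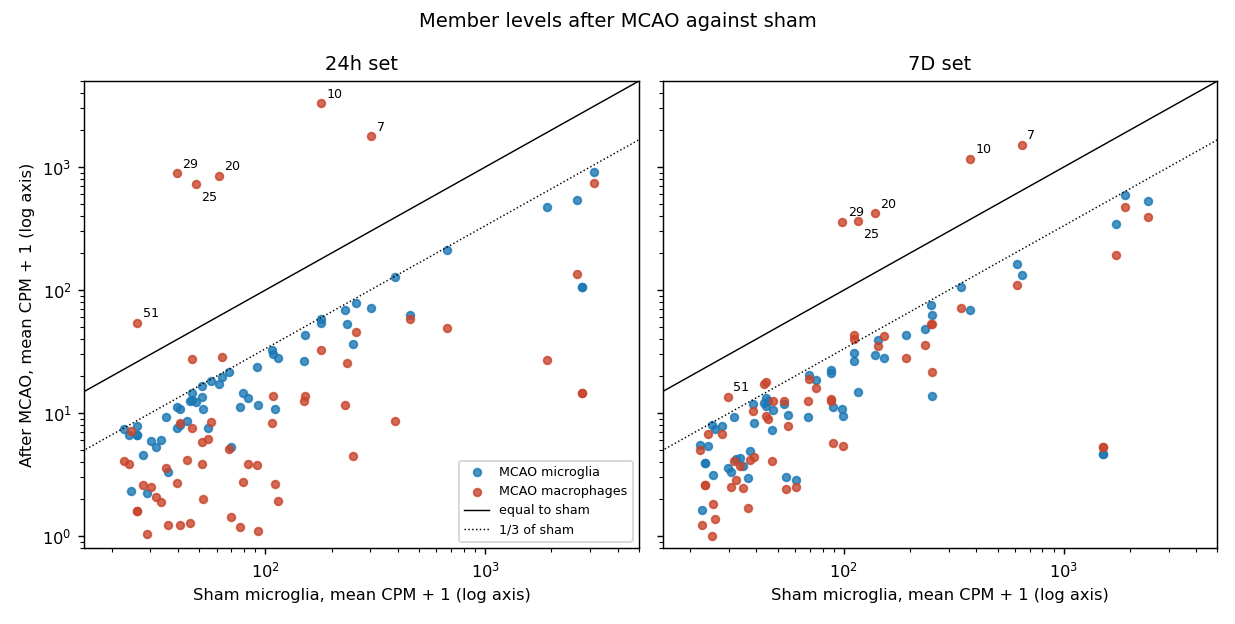
Mean CPM + 1 of each member after MCAO (vertical, log axis) against its mean in sham microglia (horizontal, log axis), for MCAO microglia (blue) and macrophages (red) of the 24h set (left) and the 7D set (right). Blue points lie on or below the dotted 1/3 line by the rule, and the 6 numbered members are those whose 24h macrophages exceeded sham.

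The depth of the drop was compared between sets as a description, since all 4 groups were used by the rule. Of 57 members, 3 were called lower relative to sham at 7D than at 24h, where 1.71% of all 14252 transcripts were. They were member 12 (-2.15 log2, adjusted p = 0.0131), member 43 (-1.68, adjusted p = 0.0452) and member 51 (-1.57, adjusted p = 0.0185). Member 12 averaged 52.3 CPM in 24h and 12.8 CPM in 7D MCAO microglia, beside 234 and 250 CPM in sham. The sham groups themselves had a median member difference of -0.05 log2 between sets, against 0.05 over all transcripts.

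The macrophage libraries are the only ones the rule did not use, so their change between sets is the comparison tested. It is not fully independent of the rule, because same-numbered 7D microglia and macrophage libraries shared deviations from their group means (correlations of 0.213 to 0.276 across transcripts in 4 pairs). Of the 57 members, 29 rose from 24h to 7D macrophages, or 50.9%, where 21.4% of all 14252 transcripts tested rose. Only 4 members fell, or 7.02%, where 20.0% of all transcripts fell. The median log2 fold change of the members was 1.03, and that of all transcripts 0.00045. The 29 that rose had log2 fold changes of 0.88 to 5.30 with a median of 1.80, and 28 of them were at or above 1. All 7D macrophage libraries exceeded all 24h macrophage libraries for 27 of 57 members, against 24.5% of the 6608 transcripts, and lay below them for 7, against 35.9%.

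The gate conflict in the labels bears on this comparison directly. With the 24h groups taken from the cell fraction field, 1 member rose and 4 fell, and 1924 transcripts were called in place of 5911. Without the 2 libraries whose fields disagree, 23 members rose and 4 fell. Grouped by title, all 24h macrophage libraries lay above all 24h microglia libraries for 30.8% of the 6608 transcripts and below them for 33.6%. Which field is right was not tested. The 7D macrophages, whose gate the labels do not settle, also lay nearer to their microglia over the 6608 transcripts: the quartiles of the macrophage to microglia ratio were 0.770 and 1.20 at 24h and 0.844 and 1.04 at 7D. Between macrophages and MCAO microglia 24.8% of transcripts were called higher and 24.0% lower at 24h, and 6.51% and 4.48% at 7D. Gate, time and fragment length cannot be told apart in the members' change.

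**Figure D3:**
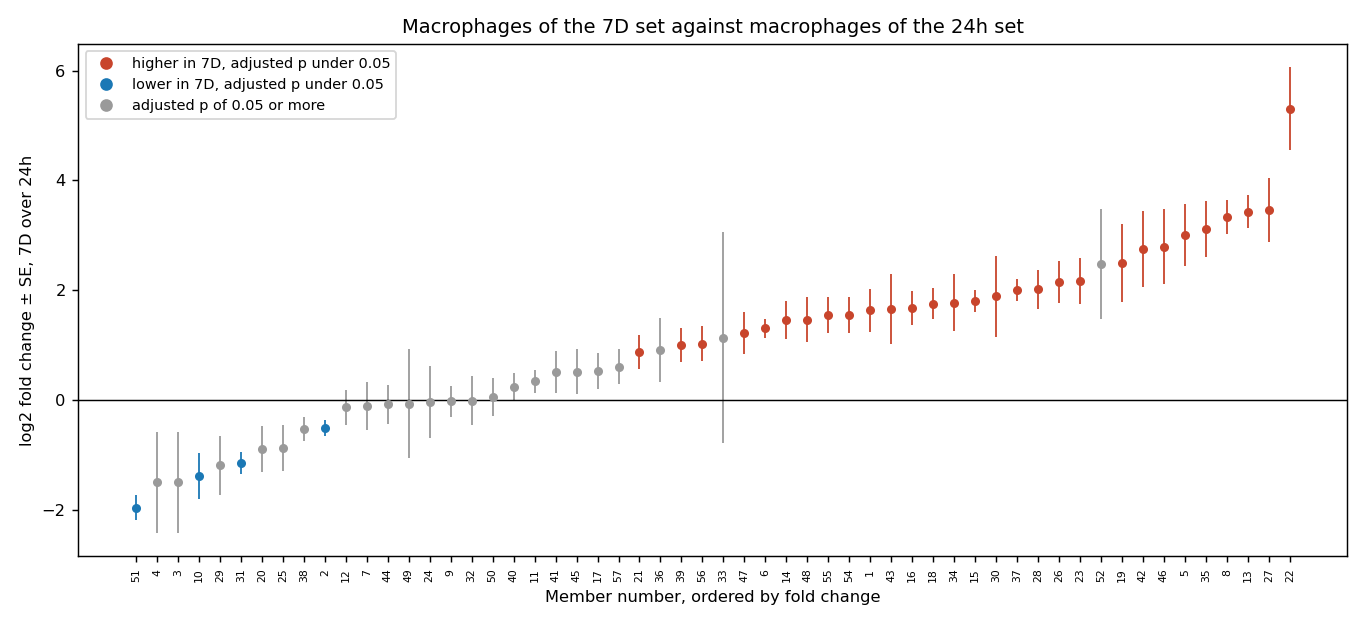
Log2 fold change of each member from 24h to 7D macrophages (vertical, points) with the standard error of the edgeR fit (bars), ordered by size along the horizontal axis by member number. The 29 red points rose and the 4 blue points fell at an adjusted p under 0.05; member 53 (-7.56 ± 3.97) is left out of the plot.

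The largest rise was in member 22, nearly undetected in 24h macrophages. Member 22 (ENSRNOT00000018438) had 0.217, 0.119 and 0 CPM in 24h macrophages, from 2, 1 and 0 counts, and 2.58, 3.65, 4.37 and 7.01 CPM in 7D macrophages, from 36, 49, 50 and 108 counts. Its log2 fold change was 5.30 ± 0.76 (adjusted p = 2.01e-05), and the ratio of pooled count rates was 40.3 with an exact 95% interval of 13.6 to 197 that covers counting error only. MCAO microglia held 5.80, 11.1 and 14.8 CPM of member 22 at 24h and 6.19, 7.85, 7.76 and 12.1 CPM at 7D, and sham microglia 61.9 to 118 CPM over both sets. All 7D macrophage values thus lay above all 24h macrophage values and below all sham values.

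Member 27 (ENSRNOT00000048029) rose by 3.47 ± 0.58 on the log2 scale (adjusted p = 0.000104). Its 24h macrophages had 1.41, 1.78 and 2.03 CPM and its 7D macrophages 18.1, 14.8, 24.6 and 14.02 CPM. The 7D macrophages overlapped the 7D MCAO microglia, at 17.3, 18.4, 27.4 and 15.1 CPM. Under the cell fraction grouping neither transcript was called: the fold change of ENSRNOT00000018438 was -0.036 (adjusted p = 0.988) and that of ENSRNOT00000048029 was 1.27 (adjusted p = 0.283).

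Members more abundant in sham microglia rose too. Member 8 had 4.78, 13.1 and 5.25 CPM in 24h macrophages and 60.2, 61.3, 86.8 and 74.0 CPM in 7D macrophages, a log2 fold change of 3.34 ± 0.31 (adjusted p = 1.89e-07). Member 13 went from 2.50, 5.70 and 2.36 CPM to 29.04, 30.3, 44.9 and 34.2 CPM (3.43 ± 0.30, adjusted p = 1.11e-07). Member 5 went from 10.1, 47.9 and 20.1 CPM to 163, 174, 326 and 101 CPM (3.004 ± 0.56, adjusted p = 0.000296), and member 1 rose by 1.64 ± 0.39 (adjusted p = 0.00236). In each of these 4 members the 7D macrophages did not overlap the 24h macrophages. Sham microglia stayed far above them, with 325 to 424 CPM for member 8 and 201 to 287 CPM for member 13 over both sets.

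The 4 members that fell were 2, 10, 31 and 51. Member 51 (ENSRNOT00000048677) went from 58.8, 45.9 and 55.4 CPM in 24h macrophages to 8.60, 14.1, 11.8 and 15.9 CPM in 7D macrophages, a log2 change of -1.95 ± 0.22 (adjusted p = 1.52e-06). Member 10 (ENSRNOT00000048332) went from 3539, 2898 and 3511 CPM to 686, 1328, 1037 and 1603 CPM, a change of -1.38 ± 0.42 (adjusted p = 0.0129). Neither was called under the cell fraction grouping, where the changes were -1.43 (adjusted p = 0.14) and -0.75 (adjusted p = 0.702). Member 31 fell by 1.14 ± 0.20 on the log2 scale (adjusted p = 0.000201), from 26.96, 27.7 and 28.1 CPM to 9.61, 8.72, 15.8 and 12.01 CPM. Member 2 fell by 0.51 ± 0.14 (adjusted p = 0.00756). That change is close in size to its difference between the sham groups, and member 2 was not among those whose change against sham was called.

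**Figure D4:**
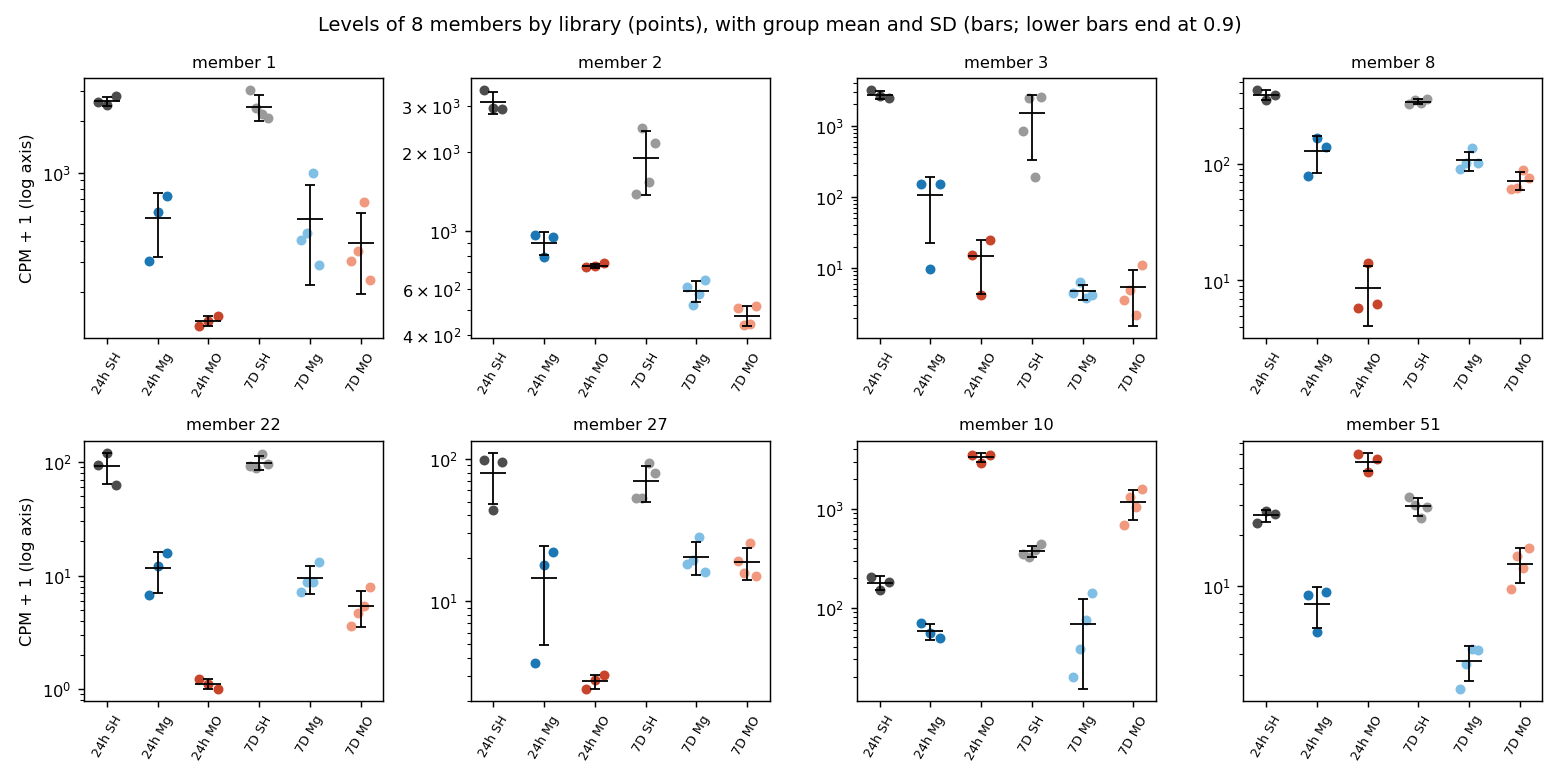
CPM + 1 on log axes in every library (points) of 8 members, with the group mean and SD (horizontal bars), for sham microglia (SH), MCAO microglia (Mg) and MCAO macrophages (MO) of both sets. Members 1, 8, 22 and 27 are lowest in the 24h macrophages, and members 10 and 51 are highest there.

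The change was also taken relative to sham microglia of the same set, as an interaction contrast; the sham libraries helped to choose the members, with the same threshold in both sets. On this measure 24 of 57 members were higher at 7D, where 12.4% of all transcripts were, and 6 were lower, where 12.6% were. Of the 29 members that rose between the macrophage groups, 23 were also higher here. This contrast contains the same macrophage difference, so the overlap is no separate support. The median over the members was 1.13 log2, and over all transcripts -0.04. Under the cell fraction grouping 0 members were called in either direction by edgeR, with 2 higher and 1 lower at an unadjusted p under 0.05.

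Macrophages and MCAO microglia are set side by side as a description, because the microglia libraries chose the members as low. In the 24h set, macrophage means were below microglia means for 48 of 57 members, and the median ratio of macrophages to microglia was 0.370, against 0.977 over the 6608 transcripts. At 7D the macrophage mean was lower for 39 members and the median ratio was 0.807, against 0.940. By edgeR 44 of 57 members were lower and 8 higher in 24h macrophages, where 24.0% and 24.8% of all transcripts were. In the 7D set 10 of 56 were lower and 7 higher, where 4.48% and 6.51% were. The count of 10 was 2 without 7D macrophage library 1, 3 without 7D microglia library 3, 4 without macrophage library 2 or 4, and 6 without microglia library 2 or 4. With the 24h groups from the cell fraction field, 0 of the members and 0 of all transcripts were called by edgeR between 24h macrophages and microglia, with 2 members higher and 0 lower at an unadjusted p under 0.05.

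Of the 44 members lower in 24h macrophages than in 24h microglia, 28 were among those that rose between the macrophage groups. Both calls use the 24h macrophage libraries, so a low level there favours the overlap. For the 29 that rose, the median ratio of macrophages to MCAO microglia was 0.242 at 24h and 0.708 at 7D. Over all 57 members, macrophages stood at a median of 7.70% of sham at 24h and 16.1% at 7D. Over the 29 the medians were 5.22% and 15.01%. Because the 29 were chosen by a higher level in 7D than in 24h macrophages, larger values at 7D are favoured by that choice. By edgeR 50 of 57 members were lower in 24h macrophages than in sham microglia, where 33.5% of transcripts were, and 51 of 56 at 7D, where 28.1% were. The remaining called members, 6 and 5, were higher, where 36.4% and 28.4% of transcripts were. The 29 that rose were all among those lower than sham in both sets.

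A smaller group did the opposite, and it was picked out after its values were seen, so no test of the group is given. In members 7, 10, 20, 25, 29 and 51 every 24h macrophage library exceeded every 24h sham library, which held for 33.9% of the 6608 transcripts. Member 7 had 1777, 1664 and 1892 CPM in 24h macrophages, beside 337, 244 and 327 CPM in sham and 79.5, 74.5 and 58.6 CPM in MCAO microglia. Member 29 had 681, 568 and 1409 CPM in 24h macrophages and 39.1, 27.6 and 49.0 CPM in sham. The ratios of 24h macrophages to 24h sham were 5.86, 18.5, 13.9, 14.9, 22.4 and 2.08 for members 7, 10, 20, 25, 29 and 51. High level in sham and low level in MCAO microglia therefore did not mark these 6 as transcripts of microglia alone.

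At 7D the ratios of macrophages to sham for the same 6 members were smaller, at 2.36, 3.11, 3.06, 3.13, 3.64 and 0.46. Because the 6 were chosen by their 24h macrophage level, a smaller ratio at 7D is favoured by that choice. The sham mean was also higher at 7D, at 303 and 642 CPM for member 7 and 179 and 373 CPM for member 10, though not called different. For members 7, 20, 25 and 29 edgeR called no change between the macrophage groups (adjusted p = 0.877, 0.103, 0.11 and 0.0881). In all 6 the macrophages were above MCAO microglia in both sets without overlap, which held for 8 of 57 members and 30.8% of the 6608 transcripts at 24h and for 6 of 57 and 8.32% at 7D. The rule had set the microglia level of every member low.

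The 6 members account for most of the macrophage signal of the list. They summed to 7606 ± 899 CPM in 24h macrophages, 82.7% to 86.4% of the total over all members, and to 3832 ± 1321 CPM or 56.7% to 75.9% in 7D macrophages. In sham microglia they summed to 653 ± 99.0 CPM at 24h and 1393 ± 212 CPM at 7D. The other 51 members summed to 18029 ± 1042 CPM in 24h sham, 3271 ± 633 CPM in 24h microglia and 1329 ± 58.9 CPM in 24h macrophages. In the 7D set the sums were 13270 ± 2634, 2372 ± 658 and 1794 ± 302 CPM.

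**Figure D5:**
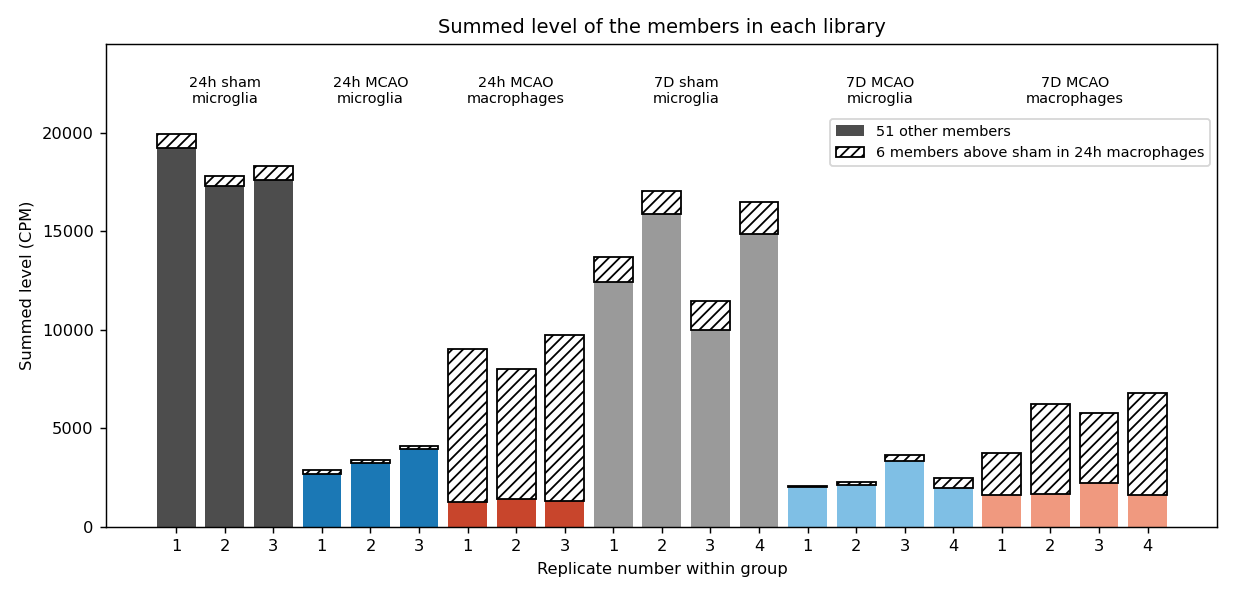
Summed CPM of the members in each library (bars from 0, by group and replicate number), split into the 6 members above sham in 24h macrophages (hatched) and the other 51 (solid). The hatched part is at least 56.7% of each macrophage bar and at most 12.8% of each sham bar.

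Libraries within a group also differed, in part in ways that several members shared. In 7D MCAO microglia the 6 members summed to 70.5, 150, 291 and 510 CPM in libraries 1 to 4, and members 7, 10, 20 and 25 each had the same order of libraries. Member 10, for example, was at 18.9, 37.6, 73.7 and 141 CPM there. In those 4 libraries the other 51 members summed to 2001, 2145, 3353 and 1989 CPM, so the library highest for one group of members was not the highest for the other. Library 3 was the highest 7D microglia library for 32 of 57 members (56.1%), against 32.2% of the 6608 transcripts. The highest 7D macrophage library for the sum of the 51 was also number 3, at 2247 CPM beside 1627, 1667 and 1636 CPM. It was the highest for 40.4% of members, near the 35.0% of the 6608 transcripts. Much of its excess lay in members 1 and 5, at 669 and 326 CPM there. The other 7D macrophage libraries had 303, 347 and 235 CPM of member 1 and 163, 174 and 101 CPM of member 5. In 7D microglia library 3 these 2 members were also the highest of their group, at 994 and 664 CPM.

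Among the 7D sham libraries, numbers 2 and 4 were both above 1 and 3 for 14 of 57 members (24.6%), against 16.2% of the 6608 transcripts. Members 2, 3, 4, 9 and 24 were among these 14, and members 3 and 4 hold identical values. The excess over all transcripts was not tested. Member 9 had 123, 360, 169 and 346 CPM, and member 24 had 29.3, 107, 24.7 and 77.6 CPM. The spread was smaller for member 2, at 1389 to 2474 CPM. For members 9 and 24 no change was called between the macrophage groups, at -0.02 (adjusted p = 0.969) and -0.03 (adjusted p = 0.984).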

How the data were processed

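The authors deposited 1 file per library with RSEM expected counts (estimated reads per transcript) and TPM, per the file headers. The submitters' processing notes name bcl2fastq, TopHat2, RSEM and genome build rn5, and the annotation was not given in the sources used here. The quasi-likelihood F-test of edgeR 4.0.16 (R 4.3.3) was run on rounded expected counts (TMM scaling, filterByExpr with minimum count 10 and minimum total 15, one term per group). Comparisons between sets used all 21 libraries (14252 transcripts), those within a set its own libraries (13081 and 13384). Adjusted p-values are Benjamini-Hochberg values over all transcripts tested, called under 0.05, and "rose" and "fell" mean called. Each SE is the absolute log2 fold change over the square root of F. CPM used for levels has no further normalisation; deposited TPM was used only to order levels. DESeq2 1.42.0 and limma 3.58.1 (voom) served as alternatives, and the edgeR step was tested on simulated data.

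The members, lists and comparisons were chosen with earlier results of these data known. Because identifiers could not be paired with names, few identifiers are printed. They are the 2 members with the highest mean sham CPM, which is not corrected for length. For 7D against 24h macrophages they are the 2 largest rises and 2 largest falls. These were taken among called members without overlap and with mean log2 CPM of at least 3. The lists of genes by symbol could not be applied. The 2 further lines per file, Chi3l1 and Nos2, were not used here. The labels call replicates biological without naming animals, so p-values speak only of the spread between libraries, which may be technical. Same-numbered 7D microglia and macrophage libraries shared deviations from the means of their groups (correlation across transcripts 0.213 to 0.276 in 4 pairs), and for 24h microglia and macrophages it was 0.098 to 0.157; a fit with the replicate number as a block was an alternative.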

Additional observations from a re-analysis of the deposited data

Results flagged for a closer look

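In groups of 4 libraries, 1 library stood apart from the rest by Dixon's test (critical value 0.829) for 5 of 60 groups of described values and 11 of 171 over all members (8.33% and 6.43%), where chance flags about 1 in 20. Member 53 was at 96.1 CPM in 7D sham library 3, at 27.8 CPM in 7D microglia library 4 and at 0.0357 CPM in 7D macrophage library 4, with the other libraries of each group at 0. The sum of the 51 members not high in macrophages was 3353 CPM in 7D microglia library 3 and 2247 CPM in 7D macrophage library 3, above the other libraries of each group.

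For 11 of 17 described members the difference between macrophages and sham microglia changed between the sets by the interaction contrast (edgeR adjusted p under 0.05). Over all 57 members this held for 30 (52.6%), and over all transcripts for 3560 of 14252. Many of the 17 were described because of such changes, and members 10, 20, 25, 29 and 51 were picked on their 24h macrophage level, so the count supports nothing. On the log2 scale it was higher at 7D by 1.68 for member 1, 3.07 for member 5, 3.46 for member 8, 3.47 for member 13, 5.13 for member 22 and 3.58 for member 27. The change was -2.51 for member 10, -2.13 for member 20, -2.22 for member 25, -2.59 for member 29 and -2.20 for member 51.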

How the results depend on the processing

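Of 348 alternative values for 21 results, 324 kept their direction and their side of the threshold, or a count within 1.5 times. Most of the 21 results use libraries that chose the members, so this tally is a description and supports nothing. The number of members was 227 with a limit of 1/2 of sham, 22 with a limit of 1/4 and 36 with a sham minimum of 40; with TPM it was 72, of which 47 were the same members, and leaving out single libraries gave 54 to 65. Members that fell between macrophage groups numbered 7 in place of 4 with limma-voom, 7 with the replicate block and 7 when only the groups compared were fitted. The block moved no other count of calls by more than 1.5 times; under it 28 members rose. Rises numbered 21 with voom and 29 with DESeq2, and 23 to 29 on leaving out single libraries. In the 7D set, members lower in macrophages than in microglia numbered 3 with voom and 2 to 8 on leaving out single libraries, in place of 10.

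Taking the 24h groups from the cell fraction field moved most: 1 member rose between macrophage groups, ENSRNOT00000018438 turned to -0.036, the contrast against sham gave 0 higher and 0 lower, 24h macrophages against microglia gave 0 and 0, 24h macrophages against sham gave 0 higher (0 at an unadjusted p under 0.05), and 30 members were lower in 24h microglia than sham. The cause was not tested. The alternative exchanges 2 libraries between groups, and for member 10 both lay with the groups of their titles (3511 and 47.8 CPM). With no normalisation factors, an alternative added after the data were seen, the median of all transcripts between macrophage groups was -0.12 and that of the members 0.91. Members with few counts in 24h macrophages, such as member 52 (1 count against 13, a ratio of 6.46 with an exact 95% interval of 0.971 to 275), limit what could be called.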
